A study of Mus musculus with 20 samples.

Results

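The genes described here encode the subunits of respiratory chain complexes III and IV and of ATP synthase, complex V, that are carried on nuclear chromosomes. They were chosen by symbol, as every gene of the deposited table whose name begins with Uqcr, with Cox followed by a digit of 4 to 8, or with Atp5, together with Cyc1. The rule took 45 of 22564 genes: 9 of complex III, 17 of complex IV, 15 of complex V, and 4 that are not subunits of these complexes (Cox7a2l, Atp5s, Atp5sl and the processed pseudogene Atp5l-ps1). No expression value entered the choice. The study sequenced total RNA of the heart and of the tibialis anterior, a leg muscle, in 5 groups of mice. Each group gave 2 mice per tissue, and so 20 libraries in all.

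The first group held trans/mdx mice given an unnatural amino acid (UAA) as 50 mg of NAEK every 2 to 3 days for 4 weeks. The second held trans/mdx mice without UAA, the third transgenic mice, the fourth mdx mice and the last wild-type mice. Transgenic mice came from fertilized eggs injected with plasmids of a UAA incorporation system, and trans/mdx mice from crossing them with mdx mice, so both carry the transgene. Mdx mice have a nonsense mutation in the dystrophin gene and model Duchenne muscular dystrophy. Only mdx mice are labelled with the strain C57BL/10. All other groups are labelled C57BL/6N, so in each comparison that sets mdx mice against another group, or pools them with one, strain differs along with the groups and its effect cannot be told apart from theirs. Trans/mdx mice descend from mdx mice by that cross, so part of their background may be C57BL/10 whatever the label reads. Comparisons of trans/mdx with transgenic mice, and those that pool trans/mdx mice with another group, may thus differ in strain too. The labels used here give no age and no promoter of the transgene. In muscle, the trans/mdx libraries without UAA have a genotype label that reads transgenic and were placed by their titles, which name the cross.

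Complex III passes electrons from ubiquinol to cytochrome c, complex IV passes them from cytochrome c to oxygen, and complex V uses the proton gradient that both help to build to make ATP. Each complex joins a few subunits made from mitochondrial DNA with many made from nuclear genes. Heart beats without pause on oxidative metabolism, while tibialis anterior of the mouse is made mostly of fast, largely glycolytic fibres. Complex IV also has paired subunit genes, where Cox6a2, Cox7a1 and Cox8b are the forms of heart and skeletal muscle and Cox6a1, Cox7a2 and Cox8a those of liver and most other tissues.

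The promoters of 4 genes are shown, a strongly heart-high and a strongly muscle-high gene of complex V and the pair of COX8 genes. The ratio of that pair differed between the tissues, although Cox8a alone did not. Letters come from RefSeq promoters of GRCm38.p6 and run 5′ to 3′ on the gene's strand, which is the minus strand for all of them. Each covers up to 250 bases before the RefSeq start, without bases that GENCODE places inside the gene. Capitals mark a match to a searched motif on either strand. The Atp5h letters lie at chr11:115419963-115420169, the Atp5e letters at chr2:174464106-174464351, the Cox8b letters at chr7:140900447-140900696 and the Cox8a letters at chr19:7217617-7217866.
Atp5h: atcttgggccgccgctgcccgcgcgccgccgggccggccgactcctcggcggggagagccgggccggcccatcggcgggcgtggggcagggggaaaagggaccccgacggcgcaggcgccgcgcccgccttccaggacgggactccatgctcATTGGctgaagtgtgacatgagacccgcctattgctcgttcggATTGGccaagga
Atp5e: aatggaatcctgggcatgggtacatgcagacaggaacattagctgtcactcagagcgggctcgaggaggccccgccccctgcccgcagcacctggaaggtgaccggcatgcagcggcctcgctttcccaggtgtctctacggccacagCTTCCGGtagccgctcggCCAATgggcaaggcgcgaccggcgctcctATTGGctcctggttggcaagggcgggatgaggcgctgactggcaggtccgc
Cox8b: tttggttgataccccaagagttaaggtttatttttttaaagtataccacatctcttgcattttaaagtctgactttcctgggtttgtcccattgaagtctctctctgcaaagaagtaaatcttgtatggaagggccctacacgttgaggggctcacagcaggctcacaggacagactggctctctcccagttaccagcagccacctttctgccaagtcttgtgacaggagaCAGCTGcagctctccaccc
Cox8a: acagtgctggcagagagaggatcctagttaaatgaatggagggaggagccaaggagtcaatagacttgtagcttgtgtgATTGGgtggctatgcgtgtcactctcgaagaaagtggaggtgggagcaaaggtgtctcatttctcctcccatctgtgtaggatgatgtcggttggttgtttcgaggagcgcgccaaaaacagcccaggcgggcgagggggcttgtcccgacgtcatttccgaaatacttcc

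The motifs were searched on both strands in the 250 bases before the start of 38 promoters, which belong to 34 of the 45 genes. They were also searched in 32851 promoters of all genes. The 11 genes without a promoter here include Cox6a2, Cox6c, Uqcrb, Uqcrc2, Atp5a1 and Cox4i2, all called higher in heart below. The shares thus leave out part of the called genes. Genes with more than 1 promoter count once for each, and windows of a gene can overlap, as those of Atp5c1 do. CCGGAAG, a core of ETS factors such as GABP, was found in 21.1% of the promoters of these genes, against 6.91% of all promoters. TGCGCA, a core of the NRF1 site, was found in 13.2% against 6.43%, and CCAAT in 52.6% against 33.8%. The half-site AAGGTCA of oestrogen-related receptors was found in 5.26% against 4.08%, and CCATNTT, a core of YY1 sites, in 10.5% against 12.4%. The muscle E-box CAGCTG was found in 5.26% against 13% of all, and TATAAA in 5.26% against 12.4%. The median GC content was 54.0% in promoters of these genes and 52.4% in all. Counted from the RefSeq start, Atp5e held CCGGAAG at -102 and CCAAT at -84 and -55, Atp5h held CCAAT at -98 and -55, and Cox8a held CCAAT at -171. A further CCGGAAG of Atp5h at -38 lies in the bases not printed. Of the motifs searched, Cox8b held only CAGCTG, at -19. Atp5h and Atp5e, which differed in opposite directions between the tissues, thus shared CCAAT and CCGGAAG, and a match describes letters and not binding.

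Levels are in FPKM, the fragments per kilobase of transcript scaled to sequencing depth. The steps between low values implied a scale of 3000000 to 4100000 fragments in hearts and of 1950000 to 2550000 in muscles. This scale need not equal the count of mapped fragments. With a transcript of 1 kb, 1 fragment then amounted to 0.244 to 0.333 FPKM in hearts and to 0.392 to 0.513 FPKM in muscles. The tissue labels were matched by their markers. The summed level of 8 cardiac genes was 3096 to 5569 FPKM in heart and 13.8 to 138 FPKM in muscle, and that of 10 fast fibre genes was 63.1 to 151 FPKM in heart and 18130 to 37105 FPKM in muscle. A pair of libraries stood apart. Heart mdx replicate 2 had 7352 genes at 1 FPKM or more, against 5113 to 6668 in the other hearts, and muscle wild-type replicate 2 had 8530, against 6794 to 7002 in the other muscles. Each also had the lowest share of its tissue in Lars2, at 5.28% and 7.33% of all FPKM. For most comparisons between groups that use either library, the median over the subunit genes is also given without it. Changes of single genes, counts of groups that do not overlap and marker lists are given with both libraries included. Genes of mitochondrial DNA made up 43.3 to 59.8% of summed FPKM in hearts and 21.9 to 31.3% in muscles. This share was lowest among hearts in mdx replicate 2. It was 59.8 and 56.2% in trans/mdx hearts without UAA and 56.9 and 48.0% in those with UAA. What part this share had in the levels of other genes was not tested.

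Most of the 45 genes were abundant. A level of at least 1 FPKM was reached in all 20 libraries by 36 of them. The filter for testing, 1 FPKM or more in at least 2 libraries of the fit, was passed by 41 genes in heart and by 40 in muscle. Cox7b2 and Cox8c, paralogues known mainly from testis, were listed at 0 in all 20 libraries. Cox6b2, likewise a testis form, was listed above 0 only in heart trans/mdx with UAA replicate 1, at 1.202 FPKM. Atp5l-ps1 was listed above 0 only in muscle trans/mdx with UAA replicate 2, at 6.28 FPKM. Cox4i2 passed in hearts only. Many of these genes have processed pseudogenes and several have close paralogues, and how reads that fit more than one copy were treated is not given in the sources used here.

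In heart the highest levels were those of Cox6c, Cox6a2, Uqcrb and Atp5b, with medians of 348, 346, 325 and 286 FPKM. In muscle they were those of Atp5b, Cox6c, Uqcrb and Cox6a2, with medians of 239.5, 195, 175 and 152 FPKM. The lowest levels among true subunits that passed in both tissues were those of Atp5g2 and Atp5e in heart, at medians of 3.92 and 6.07 FPKM, and of Cox6a1 and Cox8a in muscle, at 4.13 and 8.98 FPKM. The plot of levels sets the tissues against each other.

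**Figure D1:**
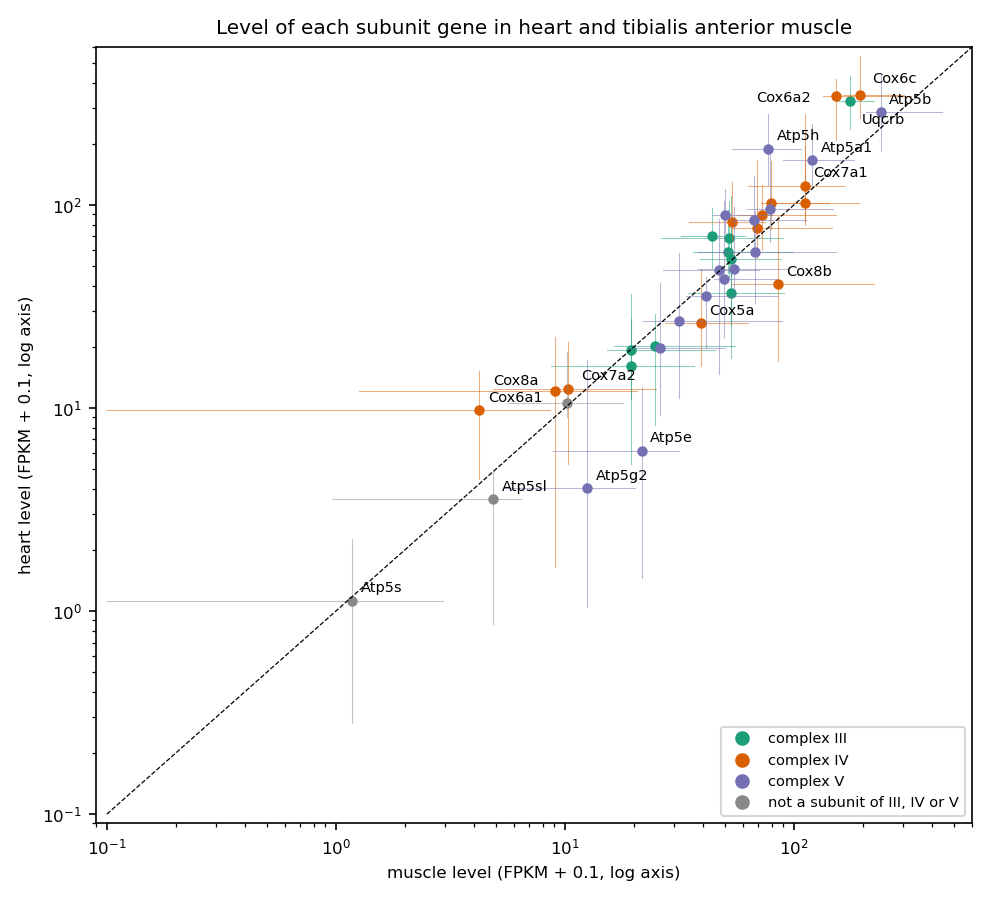
Median level of each gene in 10 hearts (vertical) and 10 muscles (horizontal), in FPKM + 0.1 on log axes, with thin lines from the lowest to the highest library and colours for the complex. Most genes lie near the dashed line of equal levels, while Atp5h (medians of 189 FPKM in heart and 77.3 in muscle) lies above it and Atp5e (6.07 and 21.6), Atp5g2 (3.92 and 12.4) and Cox8b (40.6 and 85.2) lie below it.

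The first comparison asked which subunit genes differ between heart and muscle. Of the 41 genes tested, 16 differed, 11 of them higher in heart and 5 lower in heart (limma, adjusted p under 0.05 over 10085 genes). Cox4i2, among the 11, passed the filter only through hearts, where it is higher. Among the 40 genes that passed in each tissue alone, 15 differed, 10 higher and 5 lower. Over all genes tested, 41.6% passed this test, 10.4% as higher in heart and 31.2% as lower in heart. The share of called subunit genes was thus close to that of all genes, and the split by direction was the other way round. The median log2 change of FPKM + 1, heart minus muscle, was 0.09 for the 41 genes and -0.25 for all genes tested, and 30 of the 41 lay above the median of all genes. Scaling moved this split: 22 genes were higher and 3 lower after quantile normalization, where 21% of all genes were called higher and 19.4% lower (40.4% in all). After median-of-ratios scaling 24 were higher and 3 lower, where 19.4% of all genes were called higher and 20.7% lower (40.1% in all). These scalings set the median of all genes to 0.01 and -0.02.

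**Figure D2:**
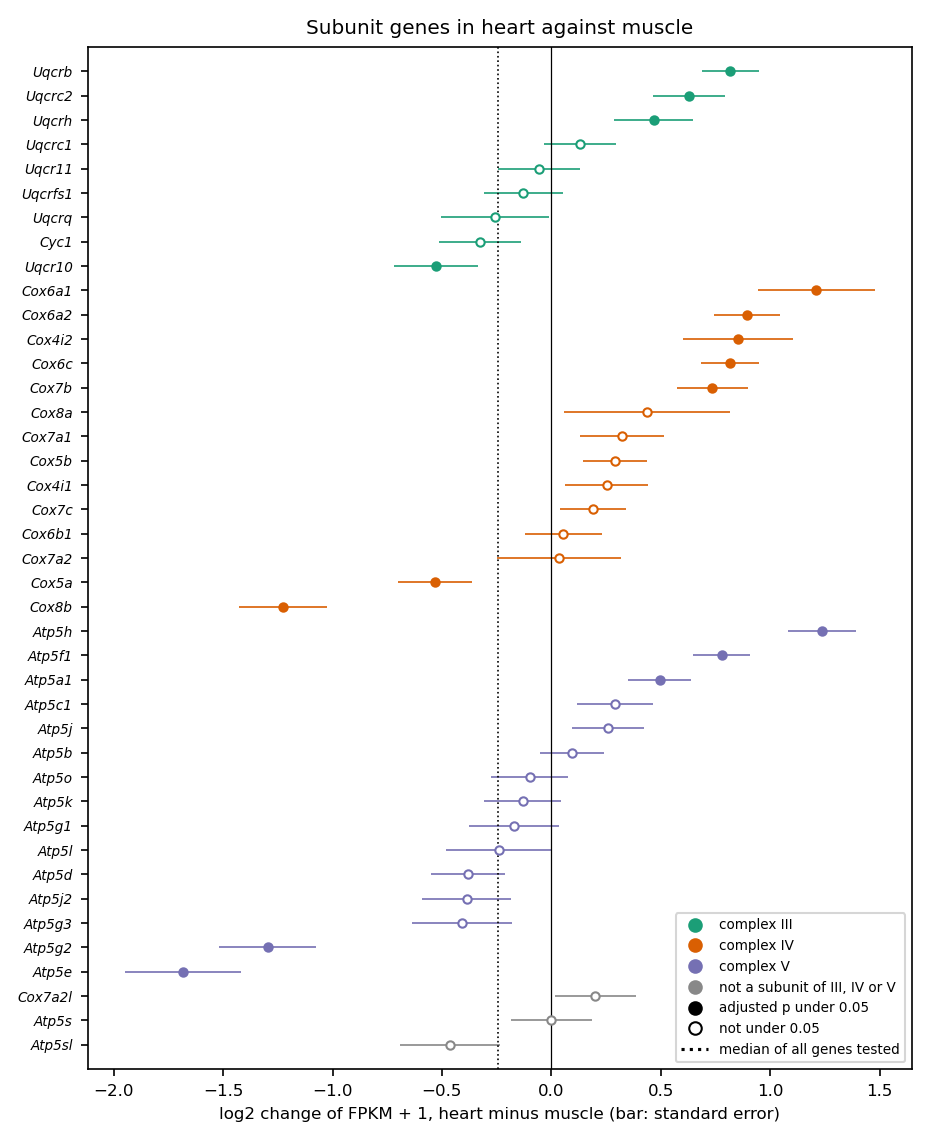
Log2 change of FPKM + 1, heart minus muscle, for the 41 tested genes by complex, with bars of 1 standard error, filled points for an adjusted p under 0.05 and a dotted line at the median of all genes tested. Calls in both directions stand within each complex, from Atp5h at 1.24 and Cox6a1 at 1.21 down to Atp5g2 at -1.30 and Atp5e at -1.68.

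In complex III, Uqcrb, Uqcrc2 and Uqcrh were higher in heart and Uqcr10 was lower, while the other 5 genes did not pass. Uqcrb (chr13:66900617-66905378), a small subunit close to the ubiquinone pocket, was at 238, 325 and 432 FPKM in heart (lowest, median and highest of 10) and at 152, 175 and 224 FPKM in muscle. Every heart lay above every muscle, and the log2 change was 0.82 (SE 0.13, limma adjusted p = 5.99e-05). Uqcrb and Atp5h were the 2 of 41 genes whose tissues did not overlap in this direction, against 2.84% of all genes tested, and none of the 41 lay wholly lower in heart, against 7.82% of all. Uqcrc2, a core protein, was at 49.0, 70.6 and 96.8 FPKM in heart and at 32.1, 44.0 and 60.9 FPKM in muscle, overlapping ranges with a log2 change of 0.63 (SE 0.16, limma adjusted p = 0.00505). Its partner Uqcrc1 had medians of 58.3 and 51.6 FPKM and a log2 change of 0.13 (SE 0.17), which did not pass. The Rieske iron-sulphur protein Uqcrfs1 had medians of 19.3 FPKM in both tissues, with a change of -0.13 (SE 0.18), and cytochrome c1, Cyc1, had 20.03 in heart and 24.6 in muscle, with -0.32 (SE 0.19). The hinge protein Uqcrh (0.47, SE 0.18, limma adjusted p = 0.0452) and the small subunit Uqcr10 (-0.53, SE 0.19, limma adjusted p = 0.0346) passed by little. Uqcrh lost the call in 16 of 27 other settings (adjusted p up to 0.113), which include leaving out any of 14 libraries, that is all but heart transgenic 2, heart mdx 1 and muscle UAA 1, transgenic 2, wild-type 2 and mdx 1. Uqcr10 lost it in 14 of 27 (adjusted p up to 0.594), which include leaving out any of 11 libraries, that is all but heart UAA 2, transgenic 1, without UAA 2, wild-type 1 and mdx 2 and muscle transgenic 1, without UAA 1, wild-type 1 and mdx 1.

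In complex V, Atp5h, Atp5f1 and Atp5a1 were higher in heart, and Atp5e and Atp5g2 were lower. Atp5h (chr11:115415689-115419962), subunit d of the peripheral stalk that holds the catalytic head still, was at 126, 189 and 282 FPKM in heart and at 53.7, 77.3 and 108 FPKM in muscle. The tissues did not overlap, and the log2 change was 1.24 (SE 0.16, limma adjusted p = 3.98e-06). Atp5f1, subunit b of the same stalk, was at 72.4, 89.0 and 119.7 FPKM in heart and at 44.4, 50.1 and 80.0 FPKM in muscle, with a change of 0.78 (SE 0.13, limma adjusted p = 0.000112). The other stalk subunits Atp5j (0.26, SE 0.16) and Atp5o (-0.10, SE 0.18) did not pass. In the catalytic head, Atp5a1, the alpha subunit, had a change of 0.49 (SE 0.14, limma adjusted p = 0.0102), while Atp5b, the beta subunit that carries the catalytic sites, had 0.09 (SE 0.14), with 185, 286 and 435 FPKM in heart and 207, 239.5 and 443 FPKM in muscle. In the central stalk that turns inside the head, Atp5e (chr2:174461072-174464105), the epsilon subunit, was at 1.35, 6.07 and 12.6 FPKM in heart and at 8.78, 21.6 and 31.6 FPKM in muscle. The tissues overlapped through 3 hearts at or above the lowest muscle, and the change was -1.68 (SE 0.26, limma adjusted p = 5.09e-05). The gamma subunit Atp5c1 (0.29, SE 0.17) and the delta subunit Atp5d (-0.38, SE 0.17) of the same stalk did not pass.

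The ring of c subunits, which turns as protons pass, is encoded by 3 genes with the same mature protein. Atp5g1 provided a median of 65.3% of their summed FPKM in heart and 58.4% in muscle, and Atp5g2 4.21% in heart and 10.4% in muscle. Atp5g2 (chr15:102662864-102672352) was at 0.946, 3.92 and 17.2 FPKM in heart and at 5.27, 12.4 and 20.1 FPKM in muscle, with overlapping ranges and a log2 change of -1.30 (SE 0.22, limma adjusted p = 0.000123). The ratio of Atp5g1 to Atp5g3 did not differ between tissues beyond its spread (difference of the log2 ratio 0.24, permutation adjusted p = 0.413). The membrane subunits Atp5j2, Atp5k and Atp5l had changes of -0.39 (SE 0.20), -0.13 (SE 0.17) and -0.24 (SE 0.24), none of which passed.

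In complex IV, Cox6a2, Cox6a1, Cox6c and Cox7b were higher in heart and Cox8b and Cox5a were lower. Cox4i2, which entered only through hearts, is given apart. Cox6a2 (chr7:128205435-128206387) was at 209, 346 and 418 FPKM in heart and at 134, 152 and 325 FPKM in muscle, with a log2 change of 0.89 (SE 0.15, limma adjusted p = 9.93e-05). Cox6a1 was at 4.36, 9.65 and 15.1 FPKM in heart and at 0, 4.13 and 8.56 FPKM in muscle, with a change of 1.21 (SE 0.27, limma adjusted p = 0.00139). Both members were thus higher in heart, and their ratio did not differ beyond its spread (difference of the log2 ratio -0.32, permutation adjusted p = 0.435). Cox6a2 made up a median of 97.1% of the pair in heart and 98.1% in muscle.

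Cox7a1 was at 79.2, 124 and 280.2 FPKM in heart and at 62.8, 111 and 165 FPKM in muscle, with a change of 0.32 (SE 0.19) that did not pass. Cox7a2 was at 5.23, 12.4 and 21.1 FPKM in heart and at 4.77, 10.3 and 25.0 FPKM in muscle, with a change of 0.03 (SE 0.28). Cox7a1 made up a median of 92.0% of the pair in heart and 89.8% in muscle, and the log2 ratio differed by 0.29 (permutation adjusted p = 0.413).

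Cox8b (chr7:140898945-140900446) was at 16.9, 40.6 and 88.4 FPKM in heart and at 53.3, 85.2 and 224 FPKM in muscle, with a log2 change of -1.23 (SE 0.20, limma adjusted p = 8.86e-05). Cox8a was at 1.55, 12.1 and 22.3 FPKM in heart and at 1.16, 8.98 and 20.6 FPKM in muscle, with a change of 0.44 (SE 0.38) that did not pass. The log2 ratio of Cox8b to Cox8a was 1.89 ± 0.64 in heart and 3.55 ± 1.03 in muscle (SD, n = 10 each), a difference of -1.66 (permutation test with 100000 resamples, two-sided, p = 0.0004, adjusted over 6 pairs 0.0024). Cox8b was the larger part of the pair in every library, with a median share of 78.7% in heart and 91.5% in muscle. The heart with the highest share, transgenic replicate 2 at 95.2%, was also the heart with the lowest Cox8a.

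**Figure D3:**
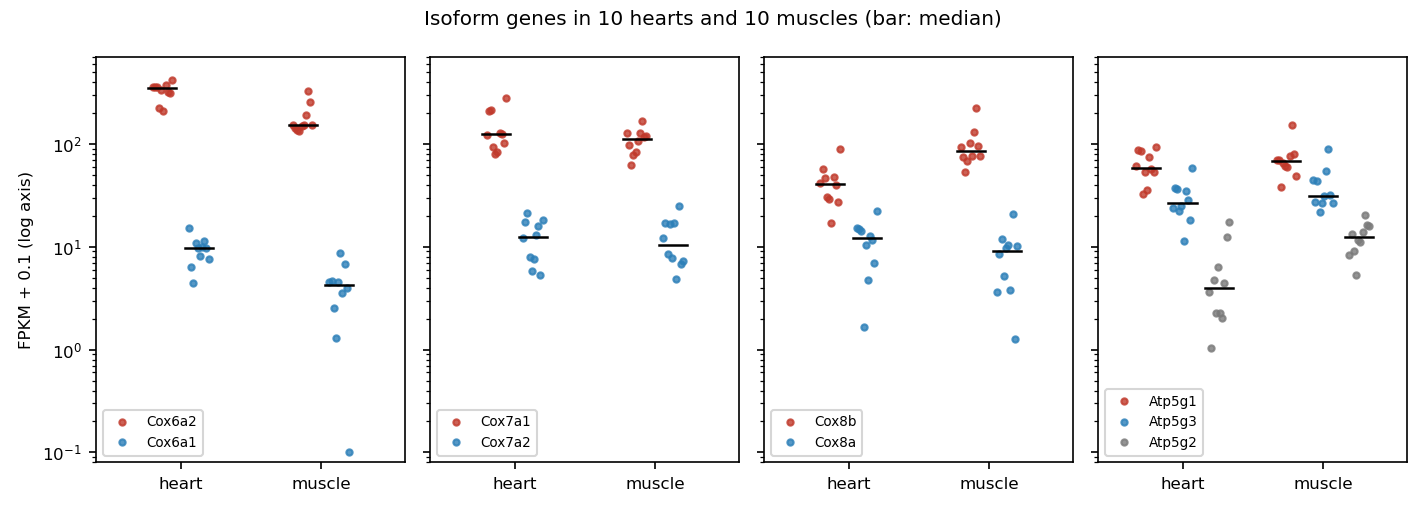
FPKM + 0.1 on a log axis of paired or grouped isoform genes in 10 hearts (left in each panel) and 10 muscles (right), a point per library and a bar at the median. Cox6a2 and Cox7a1 stand above their liver-type partners by similar steps in both tissues, while Cox8b is nearer to Cox8a in heart (40.6 and 12.1 FPKM) than in muscle (85.2 and 8.98 FPKM).

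Cox4i2, an isoform of subunit 4 known from lung and induced by low oxygen, was listed at 0 to 3.54 FPKM in heart and at 0 to 0.879 FPKM in muscle, where 8 of 10 libraries were at 0. It passed the filter only through hearts, so that its called change of 0.85 (SE 0.25, limma adjusted p = 0.0113) describes a gene at a few fragments. Its partner Cox4i1 was at medians of 77.3 FPKM in heart and 68.7 FPKM in muscle (0.25, SE 0.19). The log2 ratio of Cox4i2 to Cox4i1 differed by 0.60 (permutation adjusted p = 0.0399), a call that leaving out any of 11 libraries ended (0.46 to 0.61, adjusted p = 0.0509 to 0.0757 by permutation). These were replicate 2 of each of the 5 heart groups, both UAA and both untreated trans/mdx muscles, muscle wild-type 2 and muscle mdx 2. The ratio of Cox6b2 to Cox6b1 differed by 0.06 (permutation adjusted p = 0.813), with Cox6b2 at 0 in 19 libraries.

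Of the other complex IV subunits, Cox6c was at 269, 348 and 543 FPKM in heart and at 163, 195 and 302 FPKM in muscle, with a change of 0.81 (SE 0.13, limma adjusted p = 8.15e-05). Cox7b was higher too, at 0.73 (SE 0.16, limma adjusted p = 0.00138). Cox5a, a nuclear subunit on the matrix side, was at 16.1, 26.2 and 48.1 FPKM in heart and at 27.3, 39.3 and 62.9 FPKM in muscle. Its change of -0.53 (SE 0.17, limma adjusted p = 0.0180) was lost under quantile normalization (-0.16, adjusted p = 0.367) and median-of-ratios scaling (-0.12, adjusted p = 0.525). Cox5b (0.29, SE 0.15), Cox6b1 (0.06, SE 0.18) and Cox7c (0.19, SE 0.15) did not pass. Of the genes outside the complexes, the supercomplex factor Cox7a2l (0.20, SE 0.18), Atp5sl (-0.46, SE 0.23) and Atp5s (0.00, SE 0.19) did not pass either.

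Genes that work with these subunits were read from lists. Of 6 listed subunits of complexes III to V from mitochondrial DNA, 5 passed the filter. All 5 were higher in heart, with a median log2 change of 1.29. Among them mt-Cytb was at 10897, 11969 and 16619 FPKM in heart and at 3742, 4909 and 7104 FPKM in muscle, and mt-Co1 at 17045, 18984 and 27520 FPKM in heart and at 6578, 8261 and 10918 FPKM in muscle. The summed level of the list had medians of 30881 FPKM in heart and 13321 FPKM in muscle, nearly all of it mt-Cytb and mt-Co1. The other subunits of that list were thus low beside them, and the reason was not tested. Of the 41 nuclear subunits of complexes I and II tested, 6 were higher and 6 lower, with a median of -0.05. Assembly factors were higher in 3 and lower in 8 of 30 tested (median -0.26), with Cox20 at 1.92 (SE 0.21) and Cox14 at -0.96 (SE 0.19). Atpif1, the inhibitor that stops ATP synthase from running backwards, was at 68.3, 100.3 and 128 FPKM in heart and at 3.26, 9.18 and 13.6 FPKM in muscle, with a change of 3.45 (SE 0.16, limma adjusted p = 4.56e-12). Cytochrome c, Cycs, had a change of 0.69 (SE 0.14, limma adjusted p = 0.000518). Of 11 regulators tested, 3 were higher and 4 lower. Hif1a at 0.95 (SE 0.17) and Gabpa at 1.53 (SE 0.34) were among the higher ones, which the lower ones outnumbered. Of 96 genes named as cytosolic ribosomal proteins, a list that also takes in a few ribosomal S6 kinases, 2 were higher and 60 lower, with a median of -0.71. All these list counts come from the fit without further scaling, in which 10.4% of all genes were called higher and 31.2% lower. They were not repeated after the other scalings, which moved that background. In bulk tissue, fewer cells of a type and less RNA per cell cannot be told apart.

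The remaining comparisons asked what changes between genotypes, and with UAA, within a tissue. In 16 such contrasts, 8 in each tissue, and in 3 tests of whether an effect differed between the tissues, none of these genes passed (limma, adjusted p under 0.05), and none passed in any of 387 fits with other settings. The background was as low, at 0 or 0.0121% of all genes tested per contrast in heart and 0 or 0.011% in muscle. The counts and values that follow describe these libraries. For some contrasts the count of genes at an unadjusted p under 0.05 is given beside them. P-values printed for single genes are adjusted.

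The summed level of the 45 genes showed which libraries led. In heart it was 3056 and 3833 FPKM with UAA, 2856 and 2307 in trans/mdx without UAA, 4079.7 and 2398 in transgenic, 2812 and 5188 in mdx and 3809 and 3343 in wild-type mice. The highest heart, mdx replicate 2, and its group mate lay on either side of most of the others. In muscle it was 2667 and 2449 FPKM with UAA, 2438 and 2513 without UAA, 2206 and 2183 in transgenic, 2517 and 2159 in mdx and 2929.9 and 4399.8 in wild-type mice. Both wild-type muscles lay above the other 8. Heart mdx replicate 2 was the highest heart for 80.5% of the tested subunit genes and for 29.3% of all genes tested in heart, and muscle wild-type replicate 2 was the highest muscle for 87.5% and for 44.5%.

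**Figure D4:**
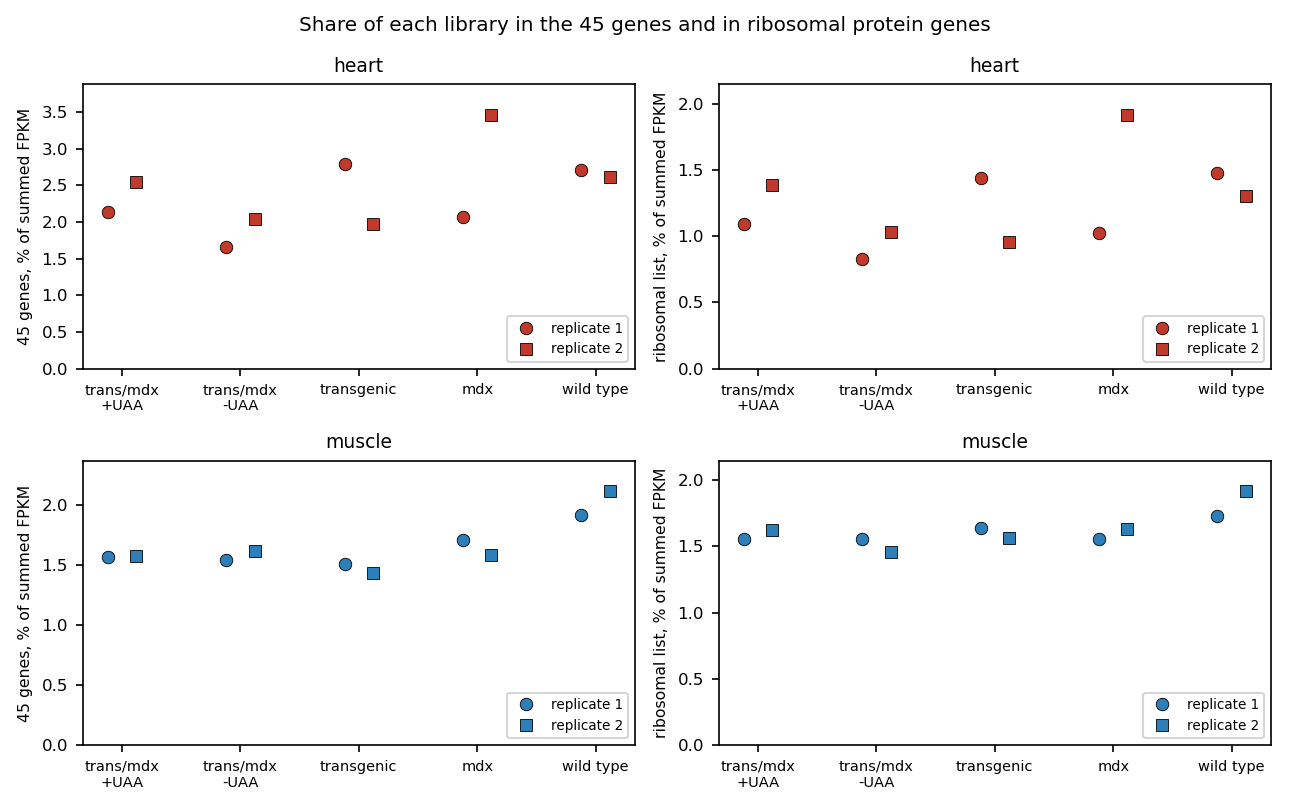
Share of a library's summed FPKM in the 45 genes (left) and in the ribosomal protein list (right), in heart (top) and muscle (bottom), a point per mouse. Heart mdx replicate 2 is highest in both (3.46% and 1.92%), as is muscle wild-type replicate 2 (2.11% and 1.92%).

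Between mdx and wild-type hearts the subunit genes had a median log2 change of 0.09, against 0.07 for all genes, and 1 of 41 had an unadjusted p under 0.05, with 219 of 8269 genes. That gene was Atp5g2, at 12.4 and 17.2 FPKM in mdx hearts, against 1.95 and 4.30 FPKM in wild-type hearts. It was at 3.53 and 0.946 FPKM with UAA, at 6.29 and 2.16 FPKM in trans/mdx without UAA and at 4.67 and 2.15 FPKM in transgenic hearts. Both mdx hearts, the only hearts labelled C57BL/10, thus lay above the other 8. The log2 change of mdx over wild type was 1.98 (SE 0.55, limma adjusted p = 1), and over the alternatives its adjusted p ranged from 0.154 to 1. Its share of the c-subunit genes was 14.7% and 10.2% in the mdx hearts and 1.75% and 4.82% in wild type. It was 1 of 41 genes whose mdx hearts lay wholly above wild type, against 16.6% of all genes. Over the genes together the direction hung on single mice: the median was -0.35 without mdx replicate 2, with 40 genes below 0, and 0.55 without mdx replicate 1, with 39 above 0. It was 0.18 without wild-type replicate 1 and 0.01 without wild-type replicate 2, and -0.02 after either other scaling. Of the marker lists, all 5 tested adipocyte genes lay below 0 (median -1.80), with a summed level over the 9 listed genes of 73.8 and 113 FPKM in mdx and 126 and 128 FPKM in wild-type hearts, and all 5 erythrocyte genes lay above 0 (median 1.19), with 174 and 286 FPKM in mdx and 105 and 97.8 FPKM in wild-type hearts. Retn and Lep, adipocyte markers, were at 0 in every heart. Fabp4 made up most of the adipocyte sum in every heart, at 66.5 to 124 FPKM. Car3 was the largest part of that sum in every muscle, at 99.7 to 367 FPKM. Adipocyte sums here and below thus mainly follow Fabp4 and Car3 and do not measure fat cells alone. What part the cells of these lists had in the result was not tested.

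Between mdx and wild-type muscles all 40 genes had a change below 0, with a median of -0.68 against -0.35 for all genes, and 19 had an unadjusted p under 0.05, with 921 of 9126 genes. The mdx values lay wholly below wild type for 26 of 40 genes, against 34% of all genes. Uqcr10 was at 34.5 and 39.5 FPKM in mdx muscles, against 75.9 and 90.4 FPKM in wild-type muscles (log2 change -1.14, SE 0.27, limma adjusted p = 0.348). Atp5b was at 240.4 and 207 FPKM in mdx muscles, against 325 and 443 FPKM in wild type (-0.77, SE 0.23, limma adjusted p = 0.424). Without wild-type replicate 2 the median was -0.35 and 4 genes had an unadjusted p under 0.05, and without wild-type replicate 1 they were -0.90 and 27. Quantile normalization gave a median of -0.16 with 3 such genes, and median-of-ratios scaling -0.19 with 3. The effect of mdx was lower in muscle than in heart for 40 of 41 genes, with a median difference of -0.80 against -0.39 for all genes and 1 gene at an unadjusted p under 0.05. That gene was again Atp5g2 (-2.04, SE 0.70, limma adjusted p = 0.795). The median difference was -0.32 without heart mdx replicate 2, -1.30 without heart mdx replicate 1 and -0.49 without muscle wild-type replicate 2.

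Between transgenic and wild-type hearts 35 of 41 genes had a change below 0, with a median of -0.20 against -0.08 for all genes. The smallest p was that of Atp5sl, a gene outside these complexes, at 1.86 and 0.768 FPKM in transgenic hearts, against 3.78 and 4.04 FPKM in wild type (-1.13, SE 0.47, limma adjusted p = 1). The transgenic hearts lay wholly below wild type for 3 of 41 genes, against 16.8% of all genes. All 5 tested adipocyte genes lay below 0 (median -2.31), with a sum of 124 and 78.2 FPKM in transgenic and 126 and 128 FPKM in wild-type hearts. Of that sum Fabp4 gave 124 and 77.3 FPKM in transgenic and 103 and 104 FPKM in wild-type hearts. Among the adipocyte genes Scd1 passed the test, at 0.514 and 0.182 FPKM in transgenic and 11.5 and 8.28 FPKM in wild-type hearts. All 8 fibroblast genes lay below 0 too (median -0.33), and the part of either list was not tested. The median was 0.19 without transgenic replicate 2, -0.55 without transgenic replicate 1, -0.11 without wild-type replicate 1 and -0.32 without wild-type replicate 2. Between transgenic and wild-type muscles, which shared the wild-type libraries with the mdx comparison, 39 of 40 genes had a change below 0, with a median of -0.72 against -0.33. Of these 19 had an unadjusted p under 0.05, with 904 of 9126 genes, and 32 of 40 lay wholly below wild type, against 33.8% of all genes. Cox8b was at 53.3 and 68.8 FPKM in transgenic muscles, against 130 and 224 FPKM in wild type (-1.48, SE 0.32, limma adjusted p = 0.298). Cox7a1 was at 62.8 and 77.9 FPKM in transgenic muscles, against 128 and 165 FPKM in wild type (-1.05, SE 0.27, limma adjusted p = 0.372). Without wild-type replicate 2 the median was -0.44 and 6 genes had an unadjusted p under 0.05, and without wild-type replicate 1 they were -1.0 and 27. Quantile normalization gave -0.24 with 6 such genes, and median-of-ratios scaling -0.28 with 4. The effect of the transgene was lower in muscle than in heart for 37 of 41 genes, with a median of -0.51 against -0.23 for all genes and 0 genes at an unadjusted p under 0.05. Its smallest p was that of Cox8b (-1.28, SE 0.64, limma adjusted p = 0.987), and its median was -0.14 without heart transgenic replicate 1, -0.91 without heart transgenic replicate 2, -0.77 without muscle wild-type replicate 1 and -0.15 without muscle wild-type replicate 2.

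Marker sums differed between the muscles too. The sum of 8 fibroblast genes was 120.4 and 229.8 FPKM in wild type and 39.3 to 109 FPKM in the other 8 muscles, with none of the 8 genes at 0 in all muscles. The sum of the 10 fast fibre genes was 22755 and 37105 FPKM in wild type and 18130 to 28335 FPKM in the others, so that replicate 2 was the higher one. All 10 lay below 0 for mdx (median -0.41) and for transgenic muscles (median -0.54). The 9 adipocyte genes all lay above 0 in transgenic over wild-type muscles (median 0.75), and the 7 endothelial genes all below (median -0.63). The sum of 7 slow fibre genes was 408 and 12.01 FPKM in wild type and 11.5 to 209.9 FPKM in the others, and all 7 lay below 0 for mdx (median -0.88). The ribosomal protein list had a median change of -0.50 in both comparisons with wild type. The complex I and II list had medians of -0.57 for mdx and -0.59 for transgenic mice. The part of these in the result was not tested.

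**Figure D5:**
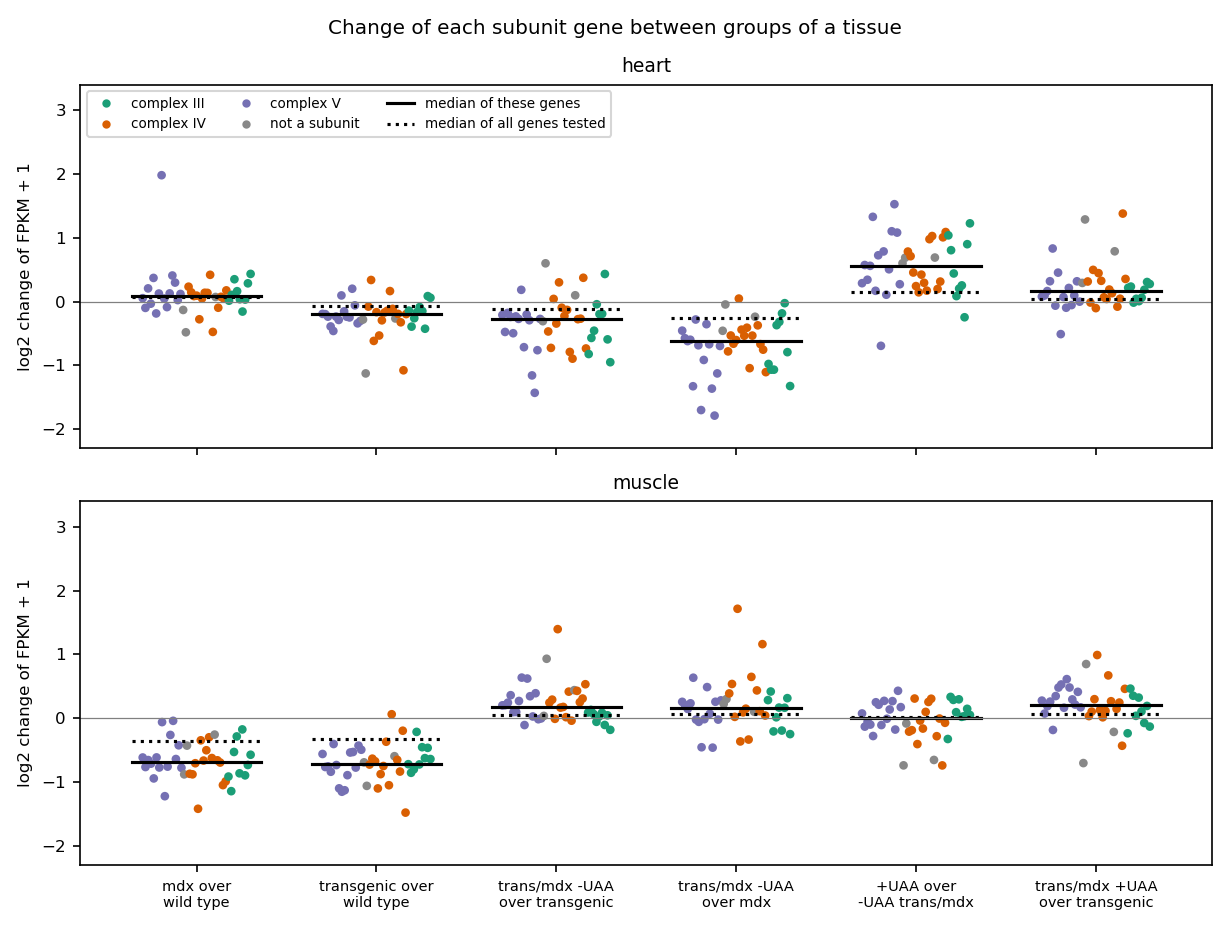
Log2 change of FPKM + 1 of each tested gene (points, coloured by complex) in 6 comparisons between groups of a tissue, in heart (top) and muscle (bottom), with a solid line at their median and a dotted line at the median of all genes tested. In muscle, mdx and transgenic over wild type lie at medians of -0.68 and -0.72, and in heart trans/mdx without UAA over mdx and with UAA over without UAA lie at -0.62 and 0.56.

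Hearts of trans/mdx mice without UAA were compared with both parent lines. Against transgenic hearts 34 of 41 genes had a change below 0 (median -0.27, against -0.11 for all genes), and against mdx hearts 40 of 41 (median -0.62, against -0.26), of which 8 had an unadjusted p under 0.05, with 479 of 8269 genes. Atp5k, subunit e at the membrane base where ATP synthase dimers form, was at 21.9 and 14.6 FPKM in trans/mdx without UAA, against 67.1 and 37.1 FPKM in transgenic and 48.3 and 85.4 FPKM in mdx hearts. It was also at 60.3 and 47.4 FPKM with UAA and 58.2 and 46.6 FPKM in wild type, so both hearts without UAA lay below the other 8. Its change was -1.43 (SE 0.44, limma adjusted p = 0.942) against transgenic and -1.79 (SE 0.44, limma adjusted p = 0.410) against mdx. Atp5j2, subunit f, was at 11.5 and 9.16 FPKM without UAA, against 33.3 and 17.4 FPKM in transgenic and 19.1 and 41.1 FPKM in mdx hearts, and in both comparisons the groups did not overlap. Atp5g2, at 6.29 and 2.16 FPKM without UAA against 12.4 and 17.2 FPKM in mdx hearts, had a change of -1.70 (SE 0.55, limma adjusted p = 0.630). The hearts without UAA lay wholly below transgenic hearts for 10 of 41 genes, against 18.9% of all genes, and wholly below mdx hearts for 17 of 41, against 25.8%. Against transgenic hearts the median was 0.12 without transgenic replicate 1 and -0.67 without transgenic replicate 2. Against mdx hearts it was -0.13 without mdx replicate 2, with 2 genes at an unadjusted p under 0.05, and -1.13 without mdx replicate 1, with 22. Against mdx it was -0.24 after quantile normalization and -0.26 after median-of-ratios scaling. In the same comparison the ribosomal protein list had a median of -0.61. The 8 fibroblast genes all lay below 0 (median -0.93), with a sum of 62.2 and 44.2 FPKM without UAA and 75.9 and 111 FPKM in mdx hearts, and none was at 0 in all hearts. The 8 cardiac genes all lay below 0 (median -0.30), with 4797 and 3096 FPKM without UAA and 3748 and 5569 FPKM in mdx hearts. Of 7 tested macrophage genes 6 lay below 0 (median -0.84), with a sum over the list of 10.6 and 6.80 FPKM without UAA and 20.6 and 33.6 FPKM in mdx hearts. Against transgenic hearts, with sums of 5258 and 3776 FPKM for cardiac and 22.4 and 13.1 FPKM for macrophage genes, 8 of 8 and 6 of 7 lay below 0 (medians -0.30 and -0.92). The part of these lists in the result was not tested.

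Muscles of trans/mdx mice without UAA were compared in the same way. Against transgenic muscles 32 of 40 genes had a change above 0 (median 0.17, against 0.05), and against mdx muscles 29 of 40 (median 0.16, against 0.07). Atp5h was at 76.9 and 94.4 FPKM without UAA, against 53.7 and 56.5 FPKM in transgenic muscles (0.62, SE 0.26, limma adjusted p = 1) and 54.4 and 67.3 FPKM in mdx muscles (0.49, SE 0.26, limma adjusted p = 0.951). Cox6a1 was at 4.46 and 8.56 FPKM without UAA, against 2.44 and 1.19 FPKM in transgenic and 3.85 and 0 FPKM in mdx muscles, levels of few fragments. They lay wholly above transgenic muscles for 16 of 40 genes, against 18.8% of all genes, and wholly above mdx muscles for 13 of 40, against 20.1%. Cox7a1, Atp5g2 and Atp5j2 were the 3 genes wholly below mdx muscles, against 13.9% of all genes, with Cox7a1 at 82.4 and 106 FPKM without UAA, against 116 and 120.4 FPKM in mdx. Against mdx the median was 0.02 without mdx replicate 2 and 0.27 without mdx replicate 1. The 8 fibroblast genes all lay below 0 against transgenic (median -0.38) and mdx muscles (median -0.93), with a sum of 60.0 and 72.5 FPKM without UAA, 82.6 and 80.0 FPKM in transgenic and 109 and 108 FPKM in mdx muscles. The 9 adipocyte genes all lay above 0 against mdx muscles (median 0.85), with 470 and 647 FPKM without UAA and 162 and 423 FPKM in mdx muscles. Against transgenic muscles all 7 slow fibre genes (median -0.40) and all 6 tested macrophage genes (median -0.52) lay below 0. Whether these lists had a part in the result was not tested.

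The effect of UAA was read from trans/mdx mice with it against those without. In heart 39 of 41 genes had a change above 0, with a median of 0.56 against 0.15 for all genes, and 7 had an unadjusted p under 0.05, with 497 of 8269 genes. With UAA the values lay wholly above those without for 25 of 41 genes, against 23.6% of all genes. With a library left out the median stayed between 0.44 and 0.65 and the count at an unadjusted p under 0.05 between 2, without UAA replicate 2, and 9. Atp5k was at 60.3 and 47.4 FPKM with UAA, against 21.9 and 14.6 FPKM without (1.53, SE 0.44, limma adjusted p = 0.577). Uqcrq, a small subunit of complex III, was at 26.3 and 16.6 FPKM with UAA, against 13.2 and 5.19 FPKM without (1.23, SE 0.52, limma adjusted p = 0.796). Cyc1 was at 20.1 and 28.8 FPKM with UAA, against 8.12 and 15.4 FPKM without (1.04, SE 0.44, limma adjusted p = 0.803). In the other direction Atp5g2 was at 3.53 and 0.946 FPKM with UAA, against 6.29 and 2.16 FPKM without, overlapping values, and Uqcrfs1 at 15.1 and 18.9 FPKM, against 25.4 and 16.1 FPKM. The ribosomal protein list had a median of 0.49 in this comparison and the complex I and II list 0.39. Markers of other cells differed between these hearts as well. The 5 tested of 10 fast fibre genes all lay above 0 (median 1.68), with a sum over the list of 112 and 131 FPKM with UAA and 82.8 and 63.1 FPKM without. Most of that sum is Ckm and Acta1, which heart also expresses. Of the 5 tested, Myh4, Tnnt3 and Atp2a1 passed the filter only through hearts with UAA. The filter thus fixed their direction and, with it, that of the median. Of genes specific to fast fibres, Tnnt3 was at 7.04 and 2.76 FPKM with UAA, against 0 and 0.343 FPKM without, and Myh4 at 2.64 and 2.39 FPKM, against 0.205 and 0 FPKM. Mylpf gave 0.533 and 2.61 FPKM in hearts with UAA, whereas the other 8 hearts were listed at 0. The 5 tested adipocyte genes all lay above 0 (median 1.06), with a sum over the list of 93.7 and 85.7 FPKM with UAA and 67.4 and 81.4 FPKM without, and Plin1, Cidec, Retn and Lep at 0 in all of these hearts. The 8 cardiac genes also all lay above 0 (median 0.48), with 4596 and 5461 FPKM with UAA and 4797 and 3096 FPKM without. The part of these lists in the result was not tested. Quantile normalization left a median of 0.29 with 27 genes above 0, and median-of-ratios scaling 0.33 with 32 above 0.

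In muscle the same comparison gave 20 genes above 0 and 20 below, with a median of 0.01 against 0.02 for all genes and 0 genes at an unadjusted p under 0.05, with 364 of 9126 genes. Atp5l, subunit g at the membrane base, was at 72.5 and 55.6 FPKM with UAA, against 47.2 and 46.6 FPKM without (0.43, SE 0.31, limma adjusted p = 1). Atp5s was at 0.674 and 0 FPKM with UAA, against 1.36 and 0.974 FPKM without, levels of a few fragments. The values with UAA lay wholly above those without for 8 of 40 genes, against 17.9% of all genes, and wholly below for 6, against 14.8%. With a library left out the median stayed between -0.04 and 0.09. Marker lists differed here too. The 9 adipocyte genes all lay below 0 (median -1.81), with a sum of 383 and 274 FPKM with UAA and 470 and 647 FPKM without, and Cidec and Lep at 0 in both muscles with UAA. Of that sum Car3 gave 303 and 191 FPKM with UAA and 305 and 367 FPKM without. The 7 slow fibre genes all lay above 0 (median 1.05), with 47.0 and 209.9 FPKM with UAA and 38.3 and 49.1 FPKM without, and the 10 fast fibre genes all lay above 0 (median 0.21), with 28335 and 20851 FPKM with UAA and 23138 and 18130 FPKM without. Their part in the result was not tested. The effect of UAA was lower in muscle than in heart for 35 of 41 genes, with a median difference of -0.51 against -0.12 for all genes, and 4 genes had an unadjusted p under 0.05. The median difference was -0.34 without heart UAA replicate 2. Atp5k had the smallest p (-1.70, SE 0.55, limma adjusted p = 0.868), so the tissues were not shown to differ in this effect for any of these genes.

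Treated trans/mdx mice were also set against transgenic mice. In heart the median change was 0.16, against 0.04 for all genes, and in muscle 0.20, against 0.07. The heart median was -0.03 without UAA replicate 2, 0.37 without UAA replicate 1, -0.28 without transgenic replicate 2 and 0.51 without transgenic replicate 1. The hearts with UAA lay wholly above transgenic hearts for 3 of 41 genes, against 15.1% of all genes, and the muscles with UAA above transgenic muscles for 21 of 40, against 21.2%. In muscle the 9 adipocyte genes all lay below 0 (median -1.72), with a sum of 383 and 274 FPKM with UAA and 535 and 450 FPKM in transgenic mice, and 5 of 6 tested macrophage genes lay below 0 (median -1.30), with a sum over the list of 4.76 and 4.52 FPKM with UAA and 16.7 and 21.1 FPKM in transgenic mice. The 10 fast fibre genes all lay above 0 (median 0.22). In heart the 5 tested fast fibre genes all lay above 0 (median 1.46). Myh4, Tnnt3 and Atp2a1 among them passed the filter only through hearts with UAA, which fixed their direction and that of the median. Whether these lists had a part in the result was not tested. In muscle Cox7a1 was at 129 and 97.3 FPKM with UAA, against 62.8 and 77.9 FPKM in transgenic mice (0.67, SE 0.27, limma adjusted p = 0.985), and Atp5h at 92.2 and 77.8 FPKM, against 53.7 and 56.5 FPKM (0.61, SE 0.26, limma adjusted p = 0.996). In heart the smallest p was that of Atp5sl (1.29, SE 0.47, limma adjusted p = 1).

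Pooling the groups by transgene, the 6 carriers and 4 non-carriers of a tissue had medians of -0.29 in heart, with 40 of 41 genes below 0, and -0.25 in muscle, with 36 of 40 below 0, against -0.13 and -0.11 for all genes. The heart median was -0.08 without mdx replicate 2, -0.55 without mdx replicate 1 and -0.16 without transgenic replicate 2, and the muscle median -0.08 without wild-type replicate 2 and -0.39 without wild-type replicate 1. The 8 fibroblast genes all lay below 0 in both tissues (median -0.42 in heart and -0.89 in muscle), with a sum of 44.2 to 75.1 FPKM in carriers and 70.3 to 111 FPKM in non-carriers in heart, and 39.3 to 82.6 FPKM in carriers and 108 to 229.8 FPKM in non-carriers in muscle. In heart the 5 tested adipocyte genes all lay below 0 (median -0.81), as did 83 of 89 genes of the ribosomal protein list (median -0.29), and in muscle the 5 erythrocyte genes (median -0.68). The part of these lists in the result was not tested. In muscle the smallest p was that of Cox8b (-0.65, limma adjusted p = 0.563). Atp5g2 was the gene whose muscles separated: carriers were at 8.13 and 13.3 FPKM with UAA, 11.5 and 11.1 FPKM without UAA and 9.03 and 5.27 FPKM in transgenic mice, against 16.0 and 15.7 FPKM in mdx and 13.7 and 20.1 FPKM in wild type. All 6 carriers lay below all 4 non-carriers, for 1 of 40 genes and 1.05% of all genes (-0.73, SE 0.24, limma adjusted p = 0.563). In heart the carriers were at 0.946 to 6.29 FPKM and overlapped wild type (-1.003, SE 0.35, limma adjusted p = 0.998). Pooled by mdx, the 6 mdx-carrying and 4 other libraries had medians of -0.07 in heart and -0.19 in muscle, against -0.01 and -0.13 for all genes. The 8 fibroblast genes all lay below 0 in muscle (median -0.39), and in heart the 5 adipocyte genes tested lay below 0 (median -0.48) and the 5 erythrocyte genes above (median 0.37), with their part not tested. Leaving out single libraries took the heart median to both signs, from -0.26 without transgenic replicate 2 to 0.13 without transgenic replicate 1, and the muscle median to -0.05 without wild-type replicate 2 and -0.36 without wild-type replicate 1. The smallest p was that of Atp5s in muscle, a gene outside these complexes (-0.63, SE 0.26, limma adjusted p = 0.886).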

How the data were processed

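RNA from heart and tibialis anterior was depleted of ribosomal RNA and made into directional libraries, per the labels' protocols. The authors deposited 1 table of FPKM, used here as given. The tools in the submitters' processing notes are Cufflinks, Cuffdiff, HISAT2 2.0.4 and cutadapt 1.9.3, with mm10 as the genome and no role for each. The sources used here do not give the annotation, the strand setting or how reads with several matches were treated. FPKM keep no counts, so no count model was fitted. The implied depth was read from the steps of low values in 864 genes whose only transcript spans 3000 bases or more. Of these values, 77.2 to 91.1% lay within 4% of a whole step.

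Values were tested as log2(FPKM + 1), which understates changes of low genes, with limma 3.58.1 (R 4.3.3), an intensity trend and Benjamini-Hochberg adjustment at 0.05 over all genes. Genes at 1 FPKM or more in at least 2 libraries entered, 8269 in heart, 9126 in muscle and 10085 over both. A tissue's 10 libraries shared a fit (5 residual degrees of freedom), and all 20 a fit for tissue differences (10). Isoform ratios were compared by permutation with 100000 resamples over 6 pairs, with the 10 libraries of a tissue pooled over its groups. The alternatives were another pseudocount, filters, quantile and median-of-ratios scaling, other sets of libraries, a replicate block and leaving out each library. The block went by replicate number within a tissue, and paired the same-numbered heart and muscle of a group between tissues. Chosen after seeing the data was centring on the 36 of these genes at 1 FPKM or more in all 20 libraries. The script was tested on simulated data. Replicates are separate mice. Gene coordinates are those of GENCODE vM21 on mm10, in which all 45 genes were found. Named genes were isoform pairs, core subunits, called genes, and the pair of smallest p per direction where none was called. Others named were chosen after their values were seen. The genes and lists were chosen with earlier results of these data known.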

Additional observations from a re-analysis of the deposited data

How the results depend on the processing

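Of the 16 genes that differed between heart and muscle, 13 passed in every other setting in which they were tested, 27 for each but Cox4i2 with 26, among them Atp5h (adjusted p at most 4.97e-05) and Cox8b (at most 0.000613). The count was 25 with quantile normalization and 27 with median-of-ratios scaling, both of which raise hearts relative to muscles. It was 14 to 17 with a library left out. Centred on the 36 subunit genes at 1 FPKM or more in all 20 libraries, it was 20 (11 higher and 9 lower). That centring sets the median of the 36 genes equal in all libraries, which by itself pulls the split by direction towards an even one. No direction of a called gene turned. Same-numbered libraries did not deviate together. Deviations from the group means correlated at -0.10 to 0.07 between same-numbered hearts and at -0.05 to 0.04 between same-numbered muscles. Between heart and muscle of the same group and number they correlated at -0.02 to 0.01. Such values cannot tell whether a heart and a muscle came from the same mouse. The replicate block assumes that the same-numbered heart and muscle of a group did, and with it 15 genes passed. The log2 ratio of Cox4i2 to Cox4i1 differed by 0.60 between tissues. Under the same pairing, a test that flips the signs of the paired differences gave it an adjusted p of 0.147, no longer past the threshold. With a library left out, the difference of this ratio ranged from 0.46 to 0.68. With a pseudocount of 0.1 it was 2.31, so its size depends on values near 0. Within tissues, medians moved with single libraries as given above, and the smallest adjusted p of any of these genes over all settings was 0.0748, for Cox8b in transgenic against wild-type muscle when only genes with a mean of 5 FPKM or more were tested. The muscle libraries placed by title could be left out of pooled comparisons only. With 2 mice per group, and few fragments below about 1 FPKM, genes that did not pass within a tissue may still differ, by large changes as well as small ones.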
